A study of Homo sapiens with 2 samples.

Results

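The integrin and laminin genes are the protein-coding genes of the GENCODE annotation whose symbols name an integrin α chain, an integrin β chain, or a laminin α, β or γ chain. There are 38 of them among 20007 protein-coding genes, of which 18 encode integrin α chains, 8 integrin β chains and 12 laminin chains. Members were chosen by symbol and not by any measured value, with earlier results of these data known. Chromatin accessibility was measured by ATAC-seq, which reads where Tn5 transposase can cut and tag the DNA, in B2B cells. B2B is BEAS-2B, an established line of immortalized human bronchial epithelial cells, labelled as wild type here, and no drug treatment is given for these samples. It was profiled in 2 biological replicates, so a single condition is described and no groups were compared. The authors' peak lists, 1 per replicate, are on the hg38 build.

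Integrins are cell surface receptors made of 1 α and 1 β chain that link the extracellular matrix to the actin or keratin cytoskeleton. Laminins are heterotrimers of an α, a β and a γ chain that assemble into the sheet of the basement membrane under epithelia, where integrins bind them. In airway epithelium, basal cells are anchored to a basement membrane rich in laminin-332 through the integrin of ITGA6 and ITGB4 in hemidesmosomes, whereas another set of integrin chains belongs to leukocytes.

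The lists held 28735 peaks in replicate 1 and 36162 in replicate 2 on chromosomes 1 to 22, X and Y. Read totals are unknown, and depth was read from the number of fragments over each summit, with a median of 35 in replicate 1 and 30 in replicate 2. The lowest summits listed had 16 fragments in replicate 1 and 13 in replicate 2, so a missing peak may lie under the limit of detection and does not show closed chromatin. Of the peaks, 92.3% in replicate 1 and 72.1% in replicate 2 lay in a region with a peak of the other list. The cell type label was compared with promoter peaks of marker genes. Of 12 epithelial markers, 1 had a promoter peak in both lists (KRT18) and 1 in a single list (KRT8). CDH1, EPCAM, KRT5, KRT14 and TP63 were among the 10 with none. Of 12 mesenchymal markers, 8 had a peak in both, THY1 had one in a single list, and ZEB2, COL1A2 and COL3A1 had none. The epithelial share was 8.33% (Wilson interval 1.49 to 35.4), below the 52.3% of all protein-coding genes. KRT5, KRT8, KRT14, TP63, ESRP1, GRHL2, CLDN4 and ELF3 had at most 49 CG dinucleotides within 500 bp of the transcription start. CDH1, EPCAM, KRT18 and KRT19 had more. Of all genes with 20 to 49, 28.9% had a promoter peak in both lists, and of those with 0 to 19, 4.13%. The part of CG content in the marker counts was not tested. The mesenchymal share was 66.7% (39.1 to 86.2), an interval that includes the 52.3%. Of 8 leukocyte markers and 6 endothelial markers, CD14 and KDR had a peak in both replicates.

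Promoters were windows reaching 1 kb upstream and 1 kb downstream from the transcription start site (TSS) of the canonical transcript. Of the 38 genes, 19 had a promoter peak in both replicates, which is 50% of them and close to the 52.3% of all protein-coding genes (95% Wilson interval for the members, 34.8 to 65.2). The same 19 had one in replicate 1, against 53.2% of all genes, and 23 had one in replicate 2, against 58% of all genes, or in at least 1 list, against 59%. Intervals cover counting error only. Another 4 genes, ITGA5, ITGA11 and LAMB2 among them, had a promoter peak in replicate 2 and none in replicate 1, which was the case for 5.74% of all genes. The remaining 15 had no promoter peak in either list. The count with a peak in both was 13 of 26 for integrins and 6 of 12 for laminins, so neither family stood apart from the genome by this count. Outside the 7 leukocyte chains the count was 19 of 31, or 61.3% (43.8 to 76.3).

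Peak height was given by the fold enrichment (FE), a linear ratio of summit fragments to those of the local background after adding 1 to both. For the 19 genes the median FE of the highest promoter peak was 6.76 in replicate 1 and 8.16 in replicate 2, with a mean of 7.46 ± 0.989 (SD, n = 2). Over all protein-coding genes with a promoter peak in both, the median was 8.14 and 9.64, a mean of 8.89 ± 1.06 (SD, n = 2). The members' median was lower than that of all such genes in each replicate. The ranges over the replicates overlapped, with both medians higher in replicate 2. FE was higher in replicate 2 for 15 of the 19 genes and higher in replicate 1 for ITGB1, LAMB1 and ITGA9 and, by a margin in the second decimal, for ITGAV.

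**Figure D1:**
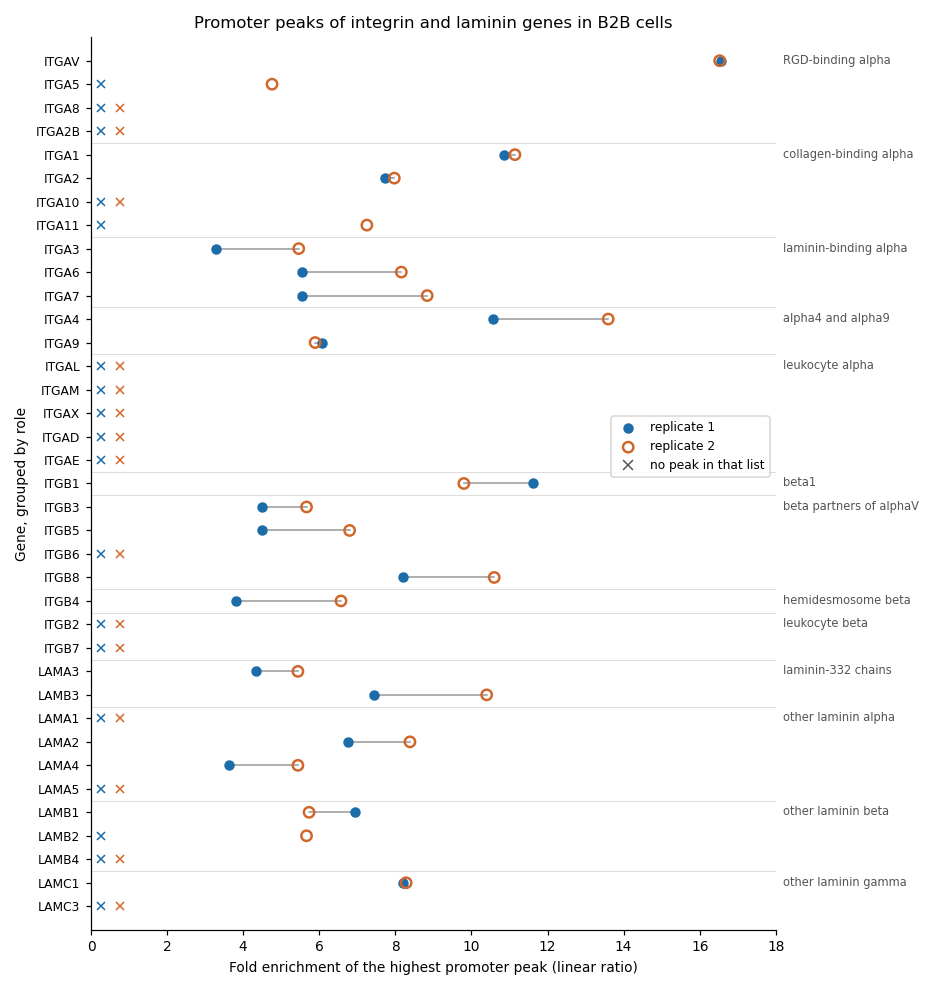
Fold enrichment of the highest promoter peak (x axis, linear ratio) of 37 of the 38 genes (y axis, grouped by role), with filled points for replicate 1, open points for replicate 2 and crosses at the left edge where a list had no peak. ITGAV lies highest at 16.5 in both replicates, and the 7 leukocyte α and β chains have crosses in both.

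Among the integrin α chains that bind RGD sequences of matrix proteins, ITGAV had the highest promoter peak of all 38 genes, and the other 3 had no peak in both replicates. ITGAV encodes the αV chain, a partner of several β chains in vitronectin receptors and in receptors that release TGF-β from its latent form. Its promoter peak had a FE of 16.5 in replicate 1 and 16.5 in replicate 2, with 158 and 140 fragments at the summit and a mean of 16.5 ± 0.02 (SD, n = 2). The summits lay 1 bp downstream and 24 bp upstream of the TSS. ITGA5, the α chain of the classic fibronectin receptor, had a peak of 4.76 with 20 fragments in replicate 2 and none in replicate 1. ITGA8, a receptor chain of the kidney, and ITGA2B, the platelet fibrinogen receptor chain, had no promoter peak and no shared open region in the gene or within 50 kb of it.

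Of the collagen receptors, ITGA1 and ITGA2 had promoter peaks in both replicates, and the 2 genes lie next to each other on chromosome 5, 30131 bp apart. ITGA1 had a FE of 10.8 in replicate 1 and 11.1 in replicate 2, a mean of 10.99 ± 0.21 (SD, n = 2). Its TSS is shared to the base with PELO, which encodes a ribosome rescue factor, so the peak cannot be assigned to either gene. ITGA2 had values of 7.74 and 7.97, a mean of 7.85 ± 0.17 (SD, n = 2), and the replicates differed little for both genes. ITGA11, a collagen receptor chain of fibroblasts, had a peak of 7.25 with 31 fragments in replicate 2 alone. ITGA10, the chain of cartilage, had no promoter peak.

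The α chains that bind laminin, ITGA3, ITGA6 and ITGA7, had promoter peaks in both replicates, and each was higher in replicate 2. ITGA6, the α partner in hemidesmosomes, had a FE of 5.54 in replicate 1 and 8.16 in replicate 2, a mean of 6.85 ± 1.85 (SD, n = 2). ITGA7, best known from skeletal muscle, had 5.54 and 8.84, a mean of 7.19 ± 2.33 (SD, n = 2). ITGA3, which pairs with ITGB1 in epithelial laminin receptors, had the lowest mean of the 19 genes, from 3.29 with 18 fragments and 5.46 with 31 fragments, at 4.38 ± 1.53 (SD, n = 2). Its replicate 1 summit was 2 fragments above the lowest summit listed. The promoter peaks of ITGA3 and LAMA4 were the ones lost at a −log10 q of at least 5.

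ITGA4 and ITGA9 encode related chains that bind VCAM1, fibronectin or tenascin, and ITGA4 is best known from lymphocytes. ITGA4 had the second highest mean promoter FE of the 38 genes, with a FE of 10.6 in replicate 1 and 13.6 in replicate 2 and a mean of 12.1 ± 2.14 (SD, n = 2). ITGA9 had 6.06 and 5.89, a mean of 5.98 ± 0.12 (SD, n = 2), and lay well below ITGA4 in both lists. The sequences upstream of the promoters with the 3 highest mean FE are shown, in hg38 and on the plus strand, which is the coding strand of all of them. Each run is the 200 bases just before the first annotated UTR, and capitals mark CG dinucleotides.
ITGAV, chr2:186589810-186590009: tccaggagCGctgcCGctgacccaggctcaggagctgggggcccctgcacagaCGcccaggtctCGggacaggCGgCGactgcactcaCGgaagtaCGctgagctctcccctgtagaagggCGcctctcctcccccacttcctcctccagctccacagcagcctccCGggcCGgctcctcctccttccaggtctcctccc
ITGA4, chr2:181457007-181457206: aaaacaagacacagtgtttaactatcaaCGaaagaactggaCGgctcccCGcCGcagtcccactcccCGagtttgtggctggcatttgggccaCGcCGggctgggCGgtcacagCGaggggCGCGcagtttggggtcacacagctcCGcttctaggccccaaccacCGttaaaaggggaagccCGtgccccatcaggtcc
ITGA1, chr5:52787716-52787915: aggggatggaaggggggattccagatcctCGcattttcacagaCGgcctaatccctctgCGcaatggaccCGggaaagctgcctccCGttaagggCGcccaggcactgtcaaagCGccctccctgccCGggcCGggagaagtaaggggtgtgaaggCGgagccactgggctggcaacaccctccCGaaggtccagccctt
These windows held 11 CG dinucleotides for ITGAV, 14 for ITGA4 and 11 for ITGA1, and their GC content was 69.5%, 61.5% and 64.0%.

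The 7 chains grouped here as leukocyte integrins had no peak at the canonical promoter in either list. These were the α chains ITGAL, ITGAM, ITGAX, ITGAD and ITGAE and the β chains ITGB2 and ITGB7, or 0 of 7, which allows a share of up to 35.4% by the Wilson interval. ITGAL, ITGAM, ITGAX and ITGAD pair with ITGB2 on white blood cells, and ITGAE pairs with ITGB7 on lymphocytes of epithelia. ITGA4, which also pairs with ITGB7, was grouped with ITGA9 and had a promoter peak in both replicates. At other annotated TSSs, ITGB2 and ITGAE had a peak in both replicates, as described below. ITGAM, ITGAX and ITGAD lie side by side on chromosome 16, and no shared open region lay within any of them. Of the 7 TSSs, 5 had fewer than 20 CG dinucleotides within 500 bp, a class in which 4.13% of all genes had a promoter peak in both replicates.

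ITGB1, the β chain shared by most α chains, had a promoter peak of 11.6 with 66 fragments in replicate 1 and 9.80 with 47 fragments in replicate 2, a mean of 10.7 ± 1.28 (SD, n = 2). Its mean was the highest of the β chains, although ITGB8 was higher in replicate 2, and the start of the divergent non-coding RNA ITGB1-DT lies 207 bp from its TSS. Of the other partners of αV, ITGB8 had a FE of 8.20 in replicate 1 and 10.6 in replicate 2, a mean of 9.40 ± 1.69 (SD, n = 2). ITGB5 had 4.50 and 6.80, a mean of 5.65 ± 1.62 (SD, n = 2). ITGB3, also the β chain of the platelet integrin, had 4.50 and 5.66, a mean of 5.08 ± 0.82 (SD, n = 2), at a TSS beside that of another annotated protein-coding gene without a symbol. ITGB5 and ITGB3 thus lay below ITGB8 in both lists, and did not differ from each other beyond the spread of their replicates. ITGB6, whose product is restricted to epithelia and activates latent TGF-β, had no promoter peak. ITGB4, the β chain of the hemidesmosome that binds plectin, had 3.81 and 6.57, a mean of 5.19 ± 1.95 (SD, n = 2).

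Read as receptors, 24 heterodimers known from textbooks were counted by promoter peaks in both replicates. Both chains had them in 12, 1 chain in 7 and neither chain in 5. Chains recur in these counts, and 50% of integrin genes had such a peak, against 52.3% of all protein-coding genes. Of the 12 dimers with ITGB1, which had a peak itself, 8 had peaks at both promoters, a count of their α chains. ITGA6 with ITGB4, the hemidesmosome receptor, also had both, whereas the pair of ITGAV with ITGB6 lacked the β chain. The 5 dimers with neither were the 4 of ITGB2 and the pair of ITGAE and ITGB7. An open promoter was not measured as transcription, and no RNA or protein values were analysed here.

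LAMA3 and LAMB3 encode the α and β chains of laminin-332, the laminin of epithelial anchorage, and had promoter peaks in both replicates. For LAMA3 the peak lay at the start of the long transcript LAMA3-202. Which of the LAMA3 transcripts gives the chain of laminin-332 was not examined here. LAMB3 had a FE of 7.45 in replicate 1 and 10.4 in replicate 2, a mean of 8.92 ± 2.09 (SD, n = 2), the highest mean of the laminin genes, although LAMC1 was higher in replicate 1. Its summits lay 988 and 1025 bp downstream of the canonical TSS and next to the TSSs of LAMB3-203 and LAMB3-204, which start 1091 and 1031 bp downstream. With a promoter window of 500 bp LAMB3 had no promoter peak in either replicate, and with the summit required in the window it had one in replicate 1 and none in replicate 2. LAMB3 was the only gene of the 10 members with fewer than 20 CG dinucleotides around the TSS that had a promoter peak in both lists. Part of this region outside annotated UTRs is shown on the plus strand of hg38, with the AP-1 motif in capitals, and was chosen for display after its values were seen.
LAMB3, chr1:209651395-209651567: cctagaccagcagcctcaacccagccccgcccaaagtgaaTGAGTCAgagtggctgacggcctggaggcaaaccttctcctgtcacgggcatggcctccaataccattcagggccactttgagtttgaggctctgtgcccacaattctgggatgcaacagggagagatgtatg

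LAMA3 had a FE of 4.33 in replicate 1 and 5.44 in replicate 2, a mean of 4.88 ± 0.78 (SD, n = 2), and the TSS used for it is that of the long transcript LAMA3-202. The gene has 15 annotated TSSs, and none of the others more than 1 kb away had a peak in both replicates.

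Among the other laminin chains, LAMB1 and LAMC1 encode the β and γ chains found in most laminins outside laminin-332. LAMC1 had a FE of 8.21 in replicate 1 and 8.28 in replicate 2, a mean of 8.25 ± 0.05 (SD, n = 2), and its promoter window held 3 separate shared regions. LAMB1 had 6.93 and 5.73, a mean of 6.33 ± 0.85 (SD, n = 2). Their α partners were divided. LAMA2, the chain of muscle basement membranes, had 6.76 and 8.38, a mean of 7.57 ± 1.15 (SD, n = 2). LAMA4, a chain of vessel walls and mesenchyme, had 3.64 and 5.44, a mean of 4.54 ± 1.27 (SD, n = 2), with summits 452 and 521 bp downstream of the TSS. LAMA5, the main α chain of mature epithelial basement membranes, and LAMA1, that of embryonic ones, had none, nor did LAMB4 and LAMC3. LAMB2, the β chain of synapses and kidney filters, had 5.66 with 24 fragments in replicate 2. Laminin-211 and laminin-411 thus had promoter peaks for all 3 chains, laminin-111 and laminin-511 for 2 chains, and laminin-521 for LAMC1 alone.

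Members with a promoter peak were richer in CG dinucleotides than those without. The number of CG dinucleotides within 500 bp of the TSS had a median of 92 in the 19 members with a peak in both replicates, 50.5 in the 4 with a peak in 1, and 13 in the 15 without. Over all genes the medians were 80 with a peak in both and 24 without. Of 17 members with at least 80 CG dinucleotides 13 had a peak in both, against 74.2% of such genes in the genome, and the 4 that did not were ITGA8, LAMA1, LAMA5 and LAMC3. At the other end, LAMB3 was 1 of 10 members with 0 to 19 CG dinucleotides, a class with 4.13% in the genome. LAMA2 and LAMA4 were 2 of 6 with 20 to 49, a class with 28.9%. Of the 5 members with 50 to 79, ITGA1, ITGA2 and ITGA7 had a peak in both, against 69.3% of such genes.

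**Figure D2:**
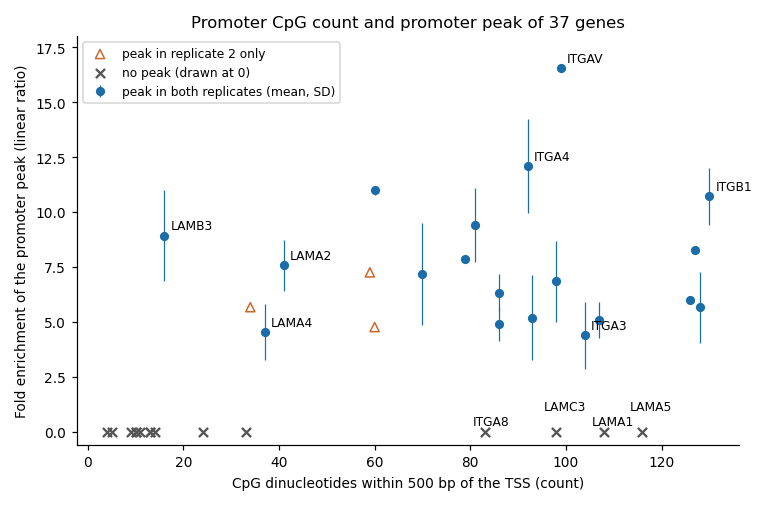
Fold enrichment of the promoter peak (y axis, linear ratio) against the number of CG dinucleotides within 500 bp of the TSS (x axis) for 37 of the 38 genes. Filled points with bars are means and SD of 2 replicates, triangles are genes with a peak in replicate 2 alone, and crosses at 0 are genes without a peak, of which ITGA8, LAMA1, LAMA5 and LAMC3 lie at 80 or more.

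Open regions away from promoters were then counted. A region was taken as shared where merged peaks held a peak of each list, and as distal where it lay over 1 kb from the canonical TSS of every protein-coding gene. Other annotated TSSs were left out of this rule, and body regions of ITGA3, ITGB5 and LAMB1, among others, lay within 1 kb of one. Of 15064 shared distal regions, 41 lay in the bodies of the 38 genes and 37 more within 50 kb of them, or 78 in all. Of the 37, 22 had the TSS of a member as the nearest protein-coding TSS, and the others stood nearest to that of another gene. At least 1 shared distal region was found in the body of 18 of the 38 genes, or 47.4%, against 20.8% of all protein-coding genes. The members are long, with a median length of 80.6 kb against 27.5 kb, and per length the bodies held 1.02 regions per 100 kb against 0.573 for all genes. For the 19 members with a promoter peak in both replicates the density was 1.19, against 0.650 for all such genes. Without a promoter peak it was 0.544 for members and 0.441 for all genes. Within 50 kb outside the gene, 21 of 38 had a region, against 43.3% of all genes. Of the 41 regions in bodies, 37 lay in introns of the canonical transcript, 11 of them in intron 1, 1 in exon 30 of ITGA10 and 3 upstream of the canonical TSS inside the annotated gene. With the FE of each region averaged over the replicates, the median was 7.65 in bodies and 6.78 within 50 kb, against 6.73 for all distal regions. In replicate 1 the medians were 6.24 in bodies, 5.72 within 50 kb and 6.06 for all. In replicate 2 they were 7.58, 7.93 and 7.48, so the order of bodies and flanks was reversed.

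**Figure D3:**
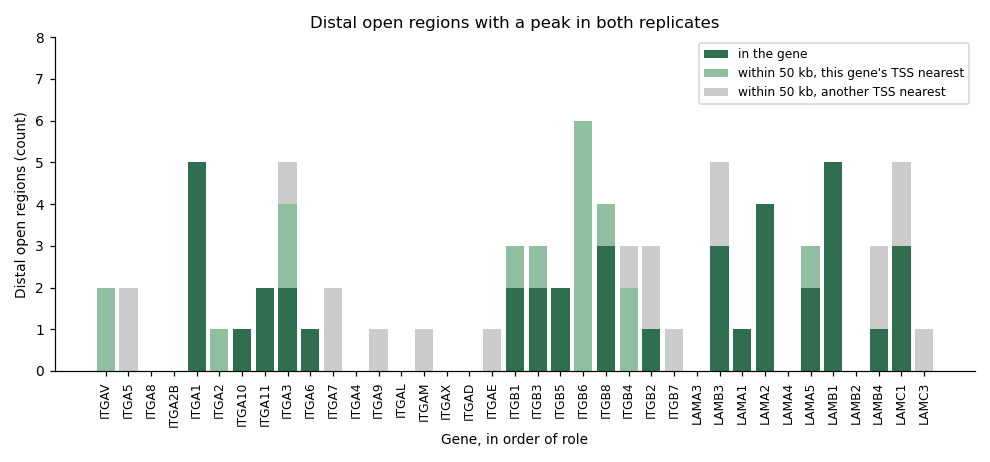
Number of shared distal open regions (y axis) for 37 of the 38 genes (x axis, in order of role), split into regions in the gene and regions within 50 kb outside it whose nearest protein-coding TSS is or is not that of the gene. ITGB6 has 6 in all, ITGA1 and LAMB1 each have 5 in the gene, and a region between neighbouring genes is counted for each of them.

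ITGA1 and LAMB1 had the most regions in their bodies, with 5 each, as many as or more than all but 0.850% of genes, and 1.28% of all genes had 5 or more. In ITGA1, 3 of them stood close together in intron 1, 11632 to 12835 bp from the TSS, and overlap PELO. The middle one of the cluster was the highest, with a FE of 10.5 in replicate 1 and 9.65 in replicate 2, a mean of 10.1 ± 0.569 (SD, n = 2). The other 2 of ITGA1 lay in introns 17 and 28, the last of them also upstream of ITGA2. In LAMB1 the 5 regions were spread over introns 3, 4, 13, 22 and 24, the highest of them in intron 13 with 9.53 and 8.61, a mean of 9.07 ± 0.650 (SD, n = 2). None of the 5 regions of LAMB1 held the AP-1 motif.

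LAMA2 is the longest of the 38 genes, 633.4 kb, and its 4 body regions lay together near its 3′ end, in introns 56 and 58, 607519 to 618434 bp from the canonical TSS. The highest mean was 9.06 ± 3.50 (SD, n = 2), from 6.58 in replicate 1 and 11.5 in replicate 2, and the next 9.05 ± 2.26 (SD, n = 2), from 7.45 and 10.6. They stood within 1 kb of annotated TSSs of other LAMA2 transcripts, LAMA2-204 and LAMA2-220 among them, and inside a non-coding RNA gene without a symbol. No other distal region of LAMA2 was found, in either list. ITGB8, LAMB3 and LAMC1 had 3 body regions each, and all 3 of LAMC1 lay in intron 1.

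ITGB6, which had no promoter peak, had 6 regions outside the gene, and for each of them the nearest protein-coding TSS was that of ITGB6. They lay upstream, from 5398 to 23982 bp before the TSS, inside a non-coding RNA gene. The AP-1 motif was held by 3 of the 6, against 32.7% of all shared distal regions. How many of all genes had as many regions within 50 kb was not counted. The nearest of them to the TSS was the highest, with a FE of 14.6 in replicate 1 and 13.9 in replicate 2, a mean of 14.3 ± 0.492 (SD, n = 2), and 84 and 83 fragments. The next, 8040 bp upstream, had 8.19 and 8.84, a mean of 8.51 ± 0.459 (SD, n = 2). Of the 15 members without a promoter peak, 5 had a body region, namely ITGA10, ITGB2, LAMA1, LAMA5 and LAMB4, and 10 had none. The 5 are 33.3% of those members, against 14.7% of all genes without a promoter peak, and 5 of all 38 members, against 6.03% of all genes. The members without a promoter peak were longer, with a median of 59.4 kb against 16.3 kb, and the part of length in the counts was not tested.

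**Figure D4:**
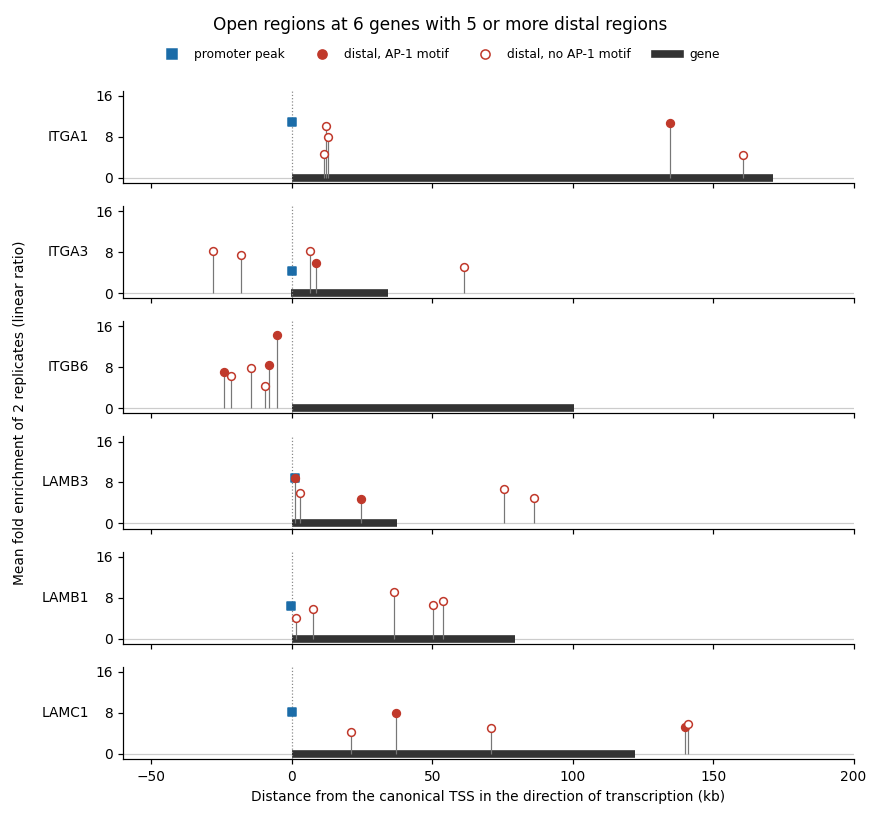
Maps of 6 genes with 5 or more distal regions, with the distance from the canonical TSS in kb (x axis) and the mean fold enrichment of 2 replicates (y axis, linear ratio). Squares are promoter peaks drawn at the mean summit, circles are distal regions, filled where they hold the AP-1 motif, and the dark bar is the gene. The LAMB3 promoter peak and its intron 1 region are the same peak, and ITGB6 has no square.

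The 10 distal regions with the highest mean FE included 2 of ITGB1. The highest of all lay 22443 bp upstream of the canonical TSS of ITGB1, inside the annotated gene and inside ITGB1-DT, with a FE of 18.02 in replicate 1 and 15.2 in replicate 2 and a mean of 16.6 ± 2.02 (SD, n = 2). It exceeded the ITGB1 promoter peak in both replicates and ranked 407 among the 15064 distal regions. The other, 47587 bp upstream at the start of the transcript ITGB1-211, had 9.18 and 13.97, a mean of 11.6 ± 3.39 (SD, n = 2). Both held an AP-1 motif.

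ITGB2, the leukocyte β chain, had no promoter peak but the second highest distal region, with a FE of 14.7 in replicate 1 and 17.1 in replicate 2, a mean of 15.9 ± 1.71 (SD, n = 2). It lay 8038 bp upstream of the canonical TSS, at the starts of ITGB2-213, ITGB2-203 and ITGB2-205, and in the antisense gene ITGB2-AS1. The region holds a tandem repeat, with 5 exact copies of a unit of 29 bases, gccttcctcaccctggatgcctgtgggca, and 60.1% of all bases equal to the base 29 positions on, so reads from other copies or other repeats could be placed there. Whether this played a part in the peak was not tested.

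The region 5398 bp upstream of ITGB6 described above was also among the 10. The sequences around the summits of the highest regions of ITGB1, ITGB2 and ITGB6 are shown on the plus strand of hg38, over at most 300 bases and without annotated UTRs, with AP-1 motifs in capitals.
ITGB1, chr10:32980523-32980822: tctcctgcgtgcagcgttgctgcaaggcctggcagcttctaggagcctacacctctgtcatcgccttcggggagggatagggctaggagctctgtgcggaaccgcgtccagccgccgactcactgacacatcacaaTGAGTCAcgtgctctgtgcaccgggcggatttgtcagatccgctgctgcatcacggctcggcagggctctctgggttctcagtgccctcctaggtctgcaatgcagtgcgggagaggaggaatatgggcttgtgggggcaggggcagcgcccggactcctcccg
ITGB2, chr21:44928874-44929086: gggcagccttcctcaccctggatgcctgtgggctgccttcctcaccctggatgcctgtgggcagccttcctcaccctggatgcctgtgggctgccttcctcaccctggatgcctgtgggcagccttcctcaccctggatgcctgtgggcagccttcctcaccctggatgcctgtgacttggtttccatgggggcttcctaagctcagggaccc
ITGB6, chr2:160205520-160205819: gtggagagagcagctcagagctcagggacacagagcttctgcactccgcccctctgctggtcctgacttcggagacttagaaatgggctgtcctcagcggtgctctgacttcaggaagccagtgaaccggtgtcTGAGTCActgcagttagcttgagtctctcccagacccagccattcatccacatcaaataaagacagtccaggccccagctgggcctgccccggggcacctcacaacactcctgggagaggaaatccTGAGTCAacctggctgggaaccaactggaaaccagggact
The windows of ITGB1 and ITGB6 hold 1 and 2 AP-1 motifs, and that of ITGB2 holds none.

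Others of the 10 were 14594 bp upstream of ITGAV, 20767 bp upstream of ITGB4, and in introns of ITGA6 and ITGA1. The ITGAV region had a FE of 11.6 in replicate 1 and 16.8 in replicate 2, a mean of 14.2 ± 3.65 (SD, n = 2). That of ITGB4 lay inside SAP30BP and had 10.4 and 13.4, a mean of 11.9 ± 2.10 (SD, n = 2). ITGA6 had its body region in intron 1, 14681 bp from the TSS, with 8.49 and 14.05, a mean of 11.3 ± 3.93 (SD, n = 2), and that in intron 17 of ITGA1 had 9.53 and 11.8, a mean of 10.7 ± 1.59 (SD, n = 2). Each of these but the ITGB4 region held an AP-1 motif, and 6 of the 10 did in all, against 32.7% of all shared distal regions. The 10 were picked by height, and the share among other distal regions of like height was not counted.

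Other annotated TSSs were examined for the genes without a peak at the canonical TSS in both replicates. With any annotated TSS, the count of members with a promoter peak rose from 19 to 22 by ITGAE, ITGB2 and LAMB2, while the share of all genes rose from 52.3% to 56.2%. At ITGAE and LAMB2 the peak was closest to the promoter of another gene, 162 bp from the TSS of HASPIN, which starts inside ITGAE, and 83 bp from that of USP19 next to LAMB2. The LAMB2 peak had a FE of 4.50 in replicate 1 and 6.34 in replicate 2, a mean of 5.42 ± 1.30 (SD, n = 2). The 117 bases beside its summit that lie in no annotated UTR are shown on the plus strand of hg38.
LAMB2, chr3:49120939-49121055: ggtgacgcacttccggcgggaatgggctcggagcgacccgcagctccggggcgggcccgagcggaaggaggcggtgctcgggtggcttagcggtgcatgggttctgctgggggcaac

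Sequence motifs were searched on both strands within 100 bp of the summits. The AP-1 motif, TGACTCA or TGAGTCA, is bound by dimers of Jun and Fos proteins, which are known to act at distal elements of epithelial cells. It was found in 25 of the 78 distal regions, or 32.1% (95% Wilson interval 22.7 to 43.0), against 32.7% of all shared distal regions and 3.37% of windows 1000 bp to either side of them. The windows beside the 78 regions held it in 3.21%. The share was 39.0% (25.7 to 54.3) for regions in bodies and 24.3% (13.4 to 40.1) for those outside, with overlapping intervals. By family it was 26.1% for regions of integrin α chains, 32.0% for β chains and 36.7% for laminins. The share at these genes differed from that of all distal regions by less than its counting error.

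For the other motifs, too, the interval included the share over all distal regions. The TEAD motif, GGAATG, was found in 29.5% (20.5 to 40.4) of the 78 regions against 25.6% of all, and the RUNX motif, TGTGGT, in 11.5% (6.19 to 20.5) against 18.7%. The GC box, GGGCGG, was found in 14.1% against 19.01%, and the ETS motif, CCGGAA, in 7.69% against 6.23%. The members had 21 promoter regions centred within 1 kb of a canonical TSS, which leave out the LAMB3 peak, centred 1007 bp away, holding an AP-1 motif and counted among the distal regions. In the 21 the GC box was found in 71.4% (50.04 to 86.2), against 69.4% of all promoter regions. AP-1 was found in 1 of the 21, a region 902 bp from the TSS of LAMC1, against 2.78% of all, and RUNX in 0 of 21, which allows a share of up to 15.5% and includes the 5.01% of all. ETS was found in 14.3% (4.98 to 34.6) against 22.8%. A match is a run of letters, and binding was not measured here.

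**Figure D5:**
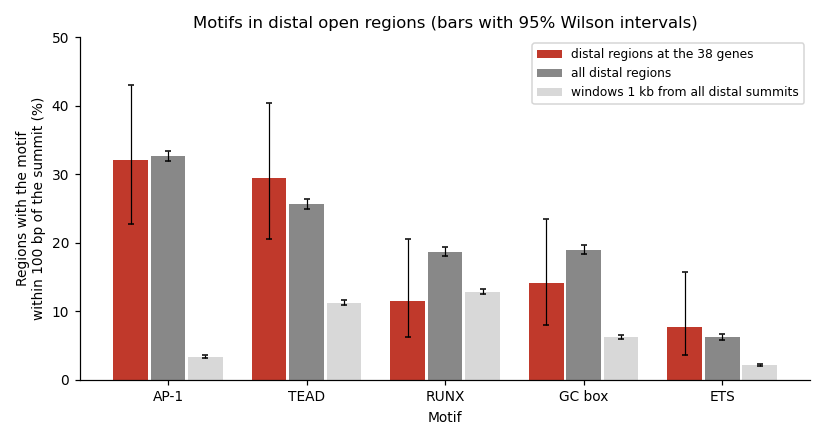
Share of regions with each motif within 100 bp of the summit (y axis, percent, with 95% Wilson intervals) for the 78 distal regions of the 38 genes, all 15064 shared distal regions, and windows 1000 bp from their summits. The AP-1 bar of the 38 genes, 32.1%, lies beside 32.7% for all distal regions and 3.37% for the windows.

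The genes around the receptors were counted in the same way. Of 32 genes of cytoplasmic integrin adhesion, 18 had a promoter peak in both replicates, or 56.2% (39.3 to 71.8) against 52.3% of all genes, with 5 in 1 replicate and 9 in none. VCL, the adaptor vinculin, had a FE of 12.6 in replicate 1 and 15.5 in replicate 2, a mean of 14.1 ± 2.01 (SD, n = 2). TLN1, the talin that activates integrins, had 7.67 and 10.9, a mean of 9.30 ± 2.31 (SD, n = 2). The kindlins FERMT1 and FERMT2 had peaks in both lists, whereas FERMT3, the kindlin of blood cells, had none.

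Of 24 genes for other laminin receptors, hemidesmosome proteins and basement membrane components, 17 had a promoter peak in both replicates, or 70.8% (50.8 to 85.1), an interval that includes the 52.3% of all genes. DAG1, the laminin receptor dystroglycan, had a FE of 12.1 in replicate 1 and 12.8 in replicate 2, a mean of 12.5 ± 0.481 (SD, n = 2). DST, which encodes the hemidesmosome linker BP230 among other products, had 9.36 and 10.5, a mean of 9.95 ± 0.836 (SD, n = 2). PLEC, which encodes plectin, had 2.98 and 2.89, a mean of 2.94 ± 0.07 (SD, n = 2). COL17A1, the transmembrane collagen of the hemidesmosome, had no promoter peak, and COL7A1, the collagen of anchoring fibrils, had one in replicate 2. COL4A1 and COL4A2 share a divergent promoter and the same peak. COL4A3 and COL4A4 also had the same values as each other, 6.41 in replicate 1 and 7.48 in replicate 2. Both genes of each pair are counted among the 17, whereas COL4A5 and COL4A6 had no peak.

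Nuclear copies of mitochondrial DNA can collect mitochondrial reads in ATAC-seq. Of 142 regions at these genes, 99 shared and 43 found in a single list, 0 matched mitochondrial DNA at an E-value of at most 1e-10.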

How the data were processed

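B2B cells were profiled by ATAC-seq in 2 biological replicates. The authors aligned the reads to hg38, dropped duplicates with their own code and called peaks on each replicate, keeping all remaining reads. The submitters' processing notes name Bowtie2 2.4.4, SAMtools 1.13 and MACS2 2.2.7.1. The Tn5 shift, the handling of mitochondrial reads and the q limit are not given in the sources used here. Each peak in the authors' lists has a fold enrichment, which is a linear ratio over the local background, and a −log10 p and −log10 q. The deposited score column was not used.

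The fragment number of a summit was computed back from the deposited fold enrichment and −log10 p. It gave the listed −log10 p to within 0.01 for 99.7% (replicate 1) and 99.8% (replicate 2) of peaks. Genes, canonical transcripts and UTRs are those of GENCODE 44, and 26 protein-coding entries with a repeated symbol were dropped. Peaks were merged where they overlapped by at least 1 bp, and a region was placed at the middle of the strongest summits of its replicates.

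All 38 genes enter the counts, with values per replicate for every promoter peak found in both lists. The details of 1 gene and of 2 distal regions are not reported here. The distal regions named are from the 10 with the highest mean fold enrichment and those of the genes with the most regions. The members and lists were chosen with earlier results of these data known. With 1 condition, no test was run, and shares have 95% Wilson intervals. The fragment numbers, overlaps and motif search were tested on simulated data. Alternatives were a stricter limit (−log10 q of 5 or more), lists cut to the same length by strength, each replicate left out, promoter windows of 500 and 3000 bp, any annotated TSS, the summit in the window, an overlap of 50% of each peak, flanks of 25 and 100 kb, a distance of over 3000 bp from a TSS for distal regions, and motifs within 50 bp or over the whole region. Python 3.11.15 was used with numpy 2.4.6, pandas 2.3.3, scipy 1.17.1, pysam 0.24.0 and matplotlib 3.10.9, and BLAST 2.17.0 for matches to mitochondrial DNA.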

Additional observations from a re-analysis of the deposited data

How the results depend on the processing

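Over 5 results and 31 values under alternatives, 28 were the same, counts being taken as the same within 1.5 times, and 3 moved, all for the 37 regions within 50 kb outside the genes. There were 21 within 25 kb and 63 within 100 kb, by construction, and 40 to 60 with each replicate left out, where peaks of a single list count. Leaving out replicate 1 gave the 60, and the cause of its lower number of peaks was not tested. Of the 19 promoter peaks, 17 remained at a −log10 q of at least 5 (without ITGA3 and LAMA4), 18 within 500 bp (without LAMB3), and 20 were found within 3 kb, with LAMA5 added, where the shares of all genes were 51.5%, 51.0% and 54.7%. With each replicate left out, the counts were 19 to 23 promoters and 42 to 56 body regions, and the AP-1 share was 29.3% to 34.1%. It was 23.1% within 50 bp of the summit and 41.03% over the whole region. No paired analysis was possible because no groups were compared, both samples being of the same condition. Regions under 16 fragments in replicate 1 or 13 in replicate 2 were not detectable at this depth, whatever the setting.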

Other observations

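Distal regions found in a single list numbered 16 in the bodies of the 38 genes, 14 of them in replicate 2, and 27 more within 50 kb, 23 of them in replicate 2. Some lay at genes that had no shared body region. ITGAV had one 51923 bp into the gene with a fold enrichment of 6.80 and 29 fragments in replicate 2. LAMA3 had one 30334 bp into the gene with 5.89 and 25 fragments in replicate 2. ITGA5 had one 7709 bp into the gene with 4.53 and 19 fragments in replicate 2. The highest of all these regions was 7.25 with 31 fragments in replicate 2, downstream of LAMA3 and nearest to TTC39C.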
